A study of Mus musculus with 6 samples.

Results

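Aquaporins are the membrane channels through which water crosses cell membranes, and the 8 aquaporin genes described here are Aqp1, Aqp2, Aqp3, Aqp4, Aqp5, Aqp7, Aqp9 and Aqp11. They were chosen by which members of the family had signal on the arrays and with their difference between the ages in view, out of 18193 genes measured. Their levels and age differences are therefore a description, with no p-value for any of the 8. All 17 probe sets whose only platform gene symbol was one of these names were used, and none was filtered out. Tissue came from old CBA/CaJ mice of 1.5 years (3 arrays) and from young adults of the same strain aged 1 to 3 months (3 arrays). It was the cochlear lateral wall, which is made of the stria vascularis, the epithelium that secretes endolymph, and the spiral ligament behind it. Both groups were unmanipulated mice of both sexes, bred in quiet housing, and animals with blocked ear canals or middle ears had been left out. Each sample was hybridised alone on a 1-colour Affymetrix array. The labels do not say whether a sample is 1 animal or a pool, so errors measure the spread among these samples, which may be technical.

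As background, aquaporins form tetramers in which every subunit has its own pore, and water follows the osmotic gradient through it. Aqp1, Aqp2, Aqp4 and Aqp5 pass mainly water. Aqp3, Aqp7 and Aqp9 also pass glycerol, and Aqp11 is an intracellular member of the endoplasmic reticulum with an unusual pore motif. In the cochlea, potassium-rich endolymph is held against perilymph of ordinary extracellular composition. Aqp1 is known from type III fibrocytes of the spiral ligament, Aqp4 from supporting cells beside the organ of Corti, and Aqp5 from outer sulcus and root cells.

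The promoters of 3 members are shown because their genes gave the 3 patterns described below, with lower signal in old tissue for Aqp1, similar signal at both ages for Aqp5 and higher signal in old tissue on 2 of 3 probe sets for Aqp11. Each runs from 250 bases before to 50 bases after the gene's start, 5′ to 3′, from RefSeq (GRCm38.p6). Capitals mark the GC box GGGCGG, the E-box CACGTG, the TATA box TATAAA and the glucocorticoid receptor motif AGAACA, searched on both strands. No 2 matches overlapped.
Aqp1, chr6:55336049-55336348, plus strand: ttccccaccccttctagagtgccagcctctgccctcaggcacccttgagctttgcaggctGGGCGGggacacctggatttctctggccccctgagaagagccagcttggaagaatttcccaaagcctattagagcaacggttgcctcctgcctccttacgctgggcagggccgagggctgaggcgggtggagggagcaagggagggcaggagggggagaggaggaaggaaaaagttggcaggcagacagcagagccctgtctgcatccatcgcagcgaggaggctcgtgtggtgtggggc
Aqp5, chr15:99590778-99591077, plus strand: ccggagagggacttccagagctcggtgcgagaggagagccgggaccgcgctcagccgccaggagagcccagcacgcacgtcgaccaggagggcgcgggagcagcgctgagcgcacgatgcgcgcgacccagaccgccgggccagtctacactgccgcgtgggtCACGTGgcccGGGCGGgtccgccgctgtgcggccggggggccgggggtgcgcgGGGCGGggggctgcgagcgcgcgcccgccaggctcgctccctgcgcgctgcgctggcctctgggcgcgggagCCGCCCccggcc
Aqp11, chr7:97738198-97738497, minus strand: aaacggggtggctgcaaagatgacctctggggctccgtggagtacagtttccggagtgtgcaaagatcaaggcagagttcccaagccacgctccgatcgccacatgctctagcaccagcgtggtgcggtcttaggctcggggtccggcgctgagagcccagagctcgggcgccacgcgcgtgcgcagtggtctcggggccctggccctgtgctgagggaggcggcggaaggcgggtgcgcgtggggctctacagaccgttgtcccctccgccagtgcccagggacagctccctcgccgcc

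The Aqp1 window held 1 GC box and no other of these motifs. Aqp5 held 3 GC boxes and 1 E-box in a window of 79.7% G and C bases, against a median of 52.7% over all promoters of this length, and Aqp11 held none of the 4 motifs. A GC box was present in 35.7% of the 32851 promoters, an E-box in 7.15%, a TATA box in 13.6% and the glucocorticoid receptor motif in 19.0%. These matches describe letters only. In the RefSeq gene order Aqp2, Aqp5 and Aqp6 lie side by side on chromosome 15, and Aqp7 and Aqp3 on chromosome 4.

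Signals are log2 values, and every difference is old minus young on that log2 scale, given ± its limma standard error. A gene is represented by its brightest probe set. Medians of the 6 arrays were 6.26 to 6.30, and the median over all probe sets was 6.28. Signals of different probe sets are not comparable as amounts of RNA. Young replicate 2 stood apart, with an Xist signal of 6.06 against 11.95 to 12.65 on the other 5 arrays. Sex was not a term of the fit, so an imbalance of sex between the ages was not examined. Aquaporin results are also given without young replicate 2. Among markers of the labelled tissue, 9 of 9 measured marginal cell genes, 8 of 10 intermediate cell genes, 10 of 12 spiral ligament fibrocyte genes and 9 of 9 root and outer sulcus genes were above 6.28. For the aquaporins, the brightest probe set exceeded 6.28 in 5 genes (Aqp1, Aqp2, Aqp4, Aqp5 and Aqp11) and lay below it in 3 (Aqp3, Aqp7 and Aqp9). Of all 18193 genes, at least 11583 others also had a brightest probe set above 6.28. These counts are therefore not read as high signal. The arrays' detection calls were not used here, so a dim signal was not separated from background.

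Old tissue had lower Aqp1 signal and higher Aqp4 signal than young tissue, and these were the differences of largest size among the 8 genes. The limma fit over all probe sets put 4.78% of all genes past an adjusted p of 0.05 (2.45% higher and 2.33% lower) and 4.71% of all probe sets (1.86% higher and 2.84% lower). Among the aquaporins that threshold took in 1 gene higher, Aqp4, and 1 lower, Aqp1, or 3 of the 17 probe sets, 2 higher and 1 lower. It no longer took in Aqp4 with any 1 array left out, and it took in Aqp11 without old replicate 1. These counts are a description and nothing is read from them, because this contrast was in view when the genes were chosen. Old and young arrays did not overlap for 4 of the 8 genes (Aqp1, Aqp3, Aqp4 and Aqp11) and for 7 of the 17 probe sets, beside 26.7% of all genes and 23.8% of all probe sets. The median difference was 0.01 over the 8 genes and 0.03 over all genes.

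**Figure D1:**
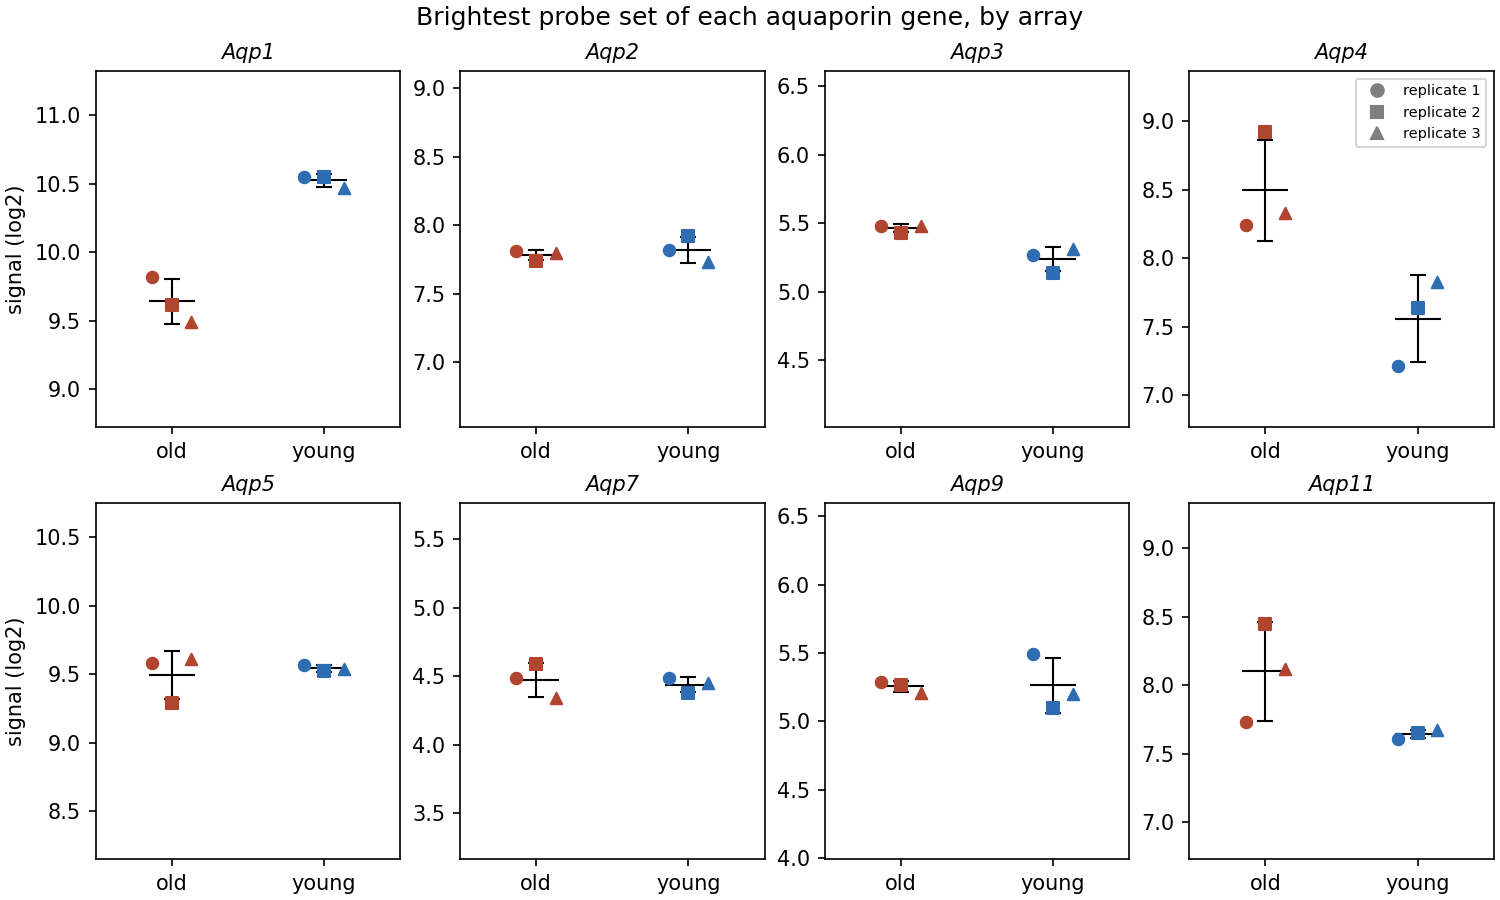
Signal (log2) of the brightest probe set of each aquaporin gene on the 3 old arrays (red, left) and 3 young arrays (blue, right), with mean and SD in black; every panel spans the same range of log2 units. Old values of Aqp1 lie below all young ones, those of Aqp3, Aqp4 and Aqp11 above, and the other 4 genes overlap.

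Aqp1, the constitutively open water channel of type III fibrocytes, red cells and many capillaries, had signals of 9.82, 9.61 and 9.49 on old arrays, against 10.55, 10.55 and 10.47 on young arrays. Every old array lay below every young one, with a gap of 0.65 between the groups. The means were 9.64 ± 0.17 in old and 10.52 ± 0.05 in young tissue (SD, n = 3 each). The difference was -0.88 ± 0.10, so the old signal was 0.542 of the young. With each array left out in turn it was -0.97 to -0.81, and -0.87 without young replicate 2. Only 1 probe set measures Aqp1, so no other probe set checks it. In a tissue piece, fewer cells that carry an RNA and less of it per cell cannot be told apart.

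Genes of other Aqp1-bearing cells and of adjoining tissue are given beside it. Here and below, counts at an unadjusted p under 0.05 have no share over all genes beside them, and nothing is read from them. Such p were common over all probe sets, since an unadjusted limma p of 0.0496 (the red cell gene Rhag) went with an adjusted p of 0.259. By limma 0 of 11 measured endothelial markers passed and 4 had an unadjusted p under 0.05, 3 of these higher and 1 lower in old tissue, with a median difference of -0.02. Their summed linear signal was 5476 to 6152 in old and 5641 to 6317 in young tissue. The smallest p was that of Eng, an endothelial co-receptor for TGF-beta, at -0.26 ± 0.09 (limma adjusted p = 0.134). The 3 with higher values were the von Willebrand factor gene Vwf at 0.39, the VEGF receptor gene Kdr at 0.23 and the tight junction gene Cldn5 at 0.38 (limma adjusted p = 0.136, 0.153 and 0.160), none overlapping between the ages and all named after their values were seen. Of 9 red cell markers, 8 lay below 6.28 on average, Hba-a1 among them, and 1 fell. That was the anion exchanger Slc4a1, at -1.23 ± 0.22 (limma adjusted p = 0.0219, and 0.0510 to 0.0914 without any 1 array other than young replicate 2). Red cell markers summed to 362 to 406 in old and 422 to 569 in young tissue. Of 9 osteoblast and bone markers 4 fell, Col1a2 (-2.69) and Dmp1 (-1.10) among them, and the sum was 3307 to 4558 in old against 9162 to 10879 in young tissue. Dmp1 makes up 51.3% of the bone sum over the 6 arrays. By limma 0 of 12 spiral ligament fibrocyte markers passed, with a median difference of -0.04. Of these, 3 had an unadjusted p under 0.05, all lower in old tissue. Fibrocyte sums were 84645 to 86745 in old and 89182 to 90921 in young tissue. Coch makes up 24.8% of them over the 6 arrays and averaged 14.41, near the highest value of the table, 14.76. The smallest p in this list was that of the matrix protein gene Tnc, at -0.76 ± 0.22 (limma adjusted p = 0.0943), or -0.39 averaged over its probe sets. The red cell, bone and fibrocyte sums did not overlap between the ages and moved the same way as Aqp1. So did the sums of the Schwann cell and glial list and of the marrow myeloid list, given below. The part of any of these in the Aqp1 difference was not tested.

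Aqp4, the water channel of astrocyte endfeet and of cochlear supporting cells, had signals of 8.24, 8.92 and 8.33 on old arrays, against 7.21, 7.64 and 7.83 on young arrays. All 3 old arrays lay above all 3 young ones, with old replicate 2 highest and young replicate 1 lowest. The means were 8.50 ± 0.37 in old and 7.56 ± 0.32 in young tissue (SD, n = 3 each), a difference of 0.94 ± 0.20 and a linear ratio of 1.91. Its spread between replicates was wide, since 98.4% of all probe sets had a lower replicate SD. With each array left out in turn the difference lay between 0.72 and 1.07, and it was 0.98 without young replicate 2.

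The other Aqp4 probe sets differed in size of response. Probe set 1425382_a_at had 5.35, 5.97 and 5.44 on old and 4.97, 5.23 and 5.01 on young arrays, a difference of 0.52 ± 0.16 with no overlap. The a in its suffix marks, by Affymetrix naming, probes shared by transcripts of the same gene. Old replicate 2 was again its highest array. Probe set 1447745_at had 4.81, 5.15 and 4.94 on old and 5.05, 4.78 and 4.89 on young arrays, a difference of 0.06 ± 0.11, and its groups overlapped. Both lay below 6.28. Averaged over its 3 probe sets, Aqp4 had a difference of 0.50.

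Markers of supporting cells, which are known to carry Aqp4, and of Schwann cells and other glia were set beside it. Of 9 measured supporting cell genes of the organ of Corti 1 rose, 0 fell and 8 did not pass, with a median difference of 0.05. The one that rose was Otog, which encodes otogelin, a protein of the acellular membranes. Otog had 8.49, 9.67 and 9.24 on old and 8.10, 7.87 and 8.14 on young arrays, a difference of 1.10 ± 0.25 (limma adjusted p = 0.0470). That call was lost, at 0.0859 to 0.161, without any 1 array other than old replicate 1, and its adjusted p was 0.0529 after cyclic loess and 0.0503 after quantile normalization. The supporting cell factor Sox2 had 6.04, 7.36 and 6.88 on old and 5.38, 6.26 and 6.12 on young arrays, which overlap (limma adjusted p = 0.206). Sox2 was singled out after its values were seen. Otog and Sox2 were, like Aqp4, highest on old replicate 2. This was not particular to supporting cells, since the summed linear signal of the root and outer sulcus list was also highest there, at 45394. That sum was 41628 on old replicate 1, 42097 on old replicate 3 and 39302 to 42438 on young arrays. The otoancorin gene Otoa lay the other way from Otog and Sox2, with 5.76, 5.85 and 5.94 on old and 6.36, 6.06 and 6.52 on young arrays, without overlap (-0.46 ± 0.12, limma adjusted p = 0.0708). Otoa was also singled out after its values were seen, and these 3 were the supporting cell genes with an unadjusted p under 0.05. The tectorial genes Tecta and Tectb, Otoa and the factor Prox1 lay below 6.28 on average. The summed linear signal of the list was 25694 to 27751 in old and 24945 to 25482 in young tissue. The connexin genes Gjb2 and Gjb6, which fibrocytes and other lateral wall cells are also known to use, make up 95.3% of that sum over the 6 arrays. Of 9 Schwann cell and glial markers 1 rose (Sox10, 0.38 ± 0.08, limma adjusted p = 0.0382) and 1 fell (Pmp22, -0.51 ± 0.10, limma adjusted p = 0.0265). Each call was lost on leaving out most single arrays, Sox10 for all but young replicate 2 (0.0963 to 0.147) and Pmp22 for old replicates 1, 2 and 3 and young replicate 1 (0.0570 to 0.120). Averaged over its probe sets, Sox10 had a difference of 0.17 and did not pass (adjusted p = 0.175). Sums of this Schwann cell and glial list were 23241 to 23612 in old and 24316 to 25040 in young tissue. S100b, which the fibrocyte list also holds, makes up 65.3% of them over the 6 arrays, and Gfap, the astrocyte filament, lay below 6.28. The part of supporting cells or glia in the Aqp4 difference was not tested.

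Aqp5, a water channel of secretory glands that in the cochlea marks outer sulcus and root cells, had signals of 9.58, 9.29 and 9.61 on old arrays, against 9.57, 9.52 and 9.54 on young arrays. The groups overlapped, and old replicate 2 was the lowest array. Means were 9.49 ± 0.18 in old and 9.54 ± 0.03 in young tissue (SD, n = 3 each), a difference of -0.05 ± 0.10 with a 95% limma interval of -0.28 to 0.18. By limma 0 of 9 root and outer sulcus markers passed and 5 had an unadjusted p under 0.05, 4 of them higher and 1 lower in old tissue, with a median difference of 0.17. The lower one, Lgr5 (-0.31 ± 0.09), is also in the fibrocyte list and was counted among the lower genes there. The pendrin gene Slc26a4, the anion exchanger of root and outer sulcus cells, was at 12.69, 12.76 and 12.77 on old and 12.62, 12.79 and 12.60 on young arrays. The smallest p was that of the potassium channel subunit gene Kcnj16, at 0.43 ± 0.10 (limma adjusted p = 0.0515, and 0.0217 to 0.0462 under 5 alternatives in scaling, filter, variance or probe set). Its limma adjusted p was 0.0576 after cyclic loess and 0.0544 with a term for replicate number. It was 0.122 to 0.188 without old replicate 2, old replicate 3 or young replicate 1, and 0.0374 without old replicate 1.

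Aqp2, the vasopressin-regulated channel of the renal collecting duct, had signals of 7.81, 7.74 and 7.80 on old arrays, against 7.82, 7.92 and 7.73 on young arrays. The groups overlapped, and the difference was -0.04 ± 0.08 with a 95% limma interval of -0.23 to 0.15. The vasopressin V2 receptor gene Avpr2, whose signal drives Aqp2 to the membrane in kidney, had 5.70, 5.42 and 5.55 on old and 5.68, 5.57 and 5.68 on young arrays, all below 6.28. Of the 21 measured genes for vasopressin signalling and Aqp2 trafficking 0 passed by limma and 2 had an unadjusted p under 0.05, both higher in old tissue, with a median difference of -0.04. The smallest p among them was that of Snap23, a vesicle fusion protein, at 0.36 ± 0.10 (limma adjusted p = 0.0934).

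**Figure D2:**
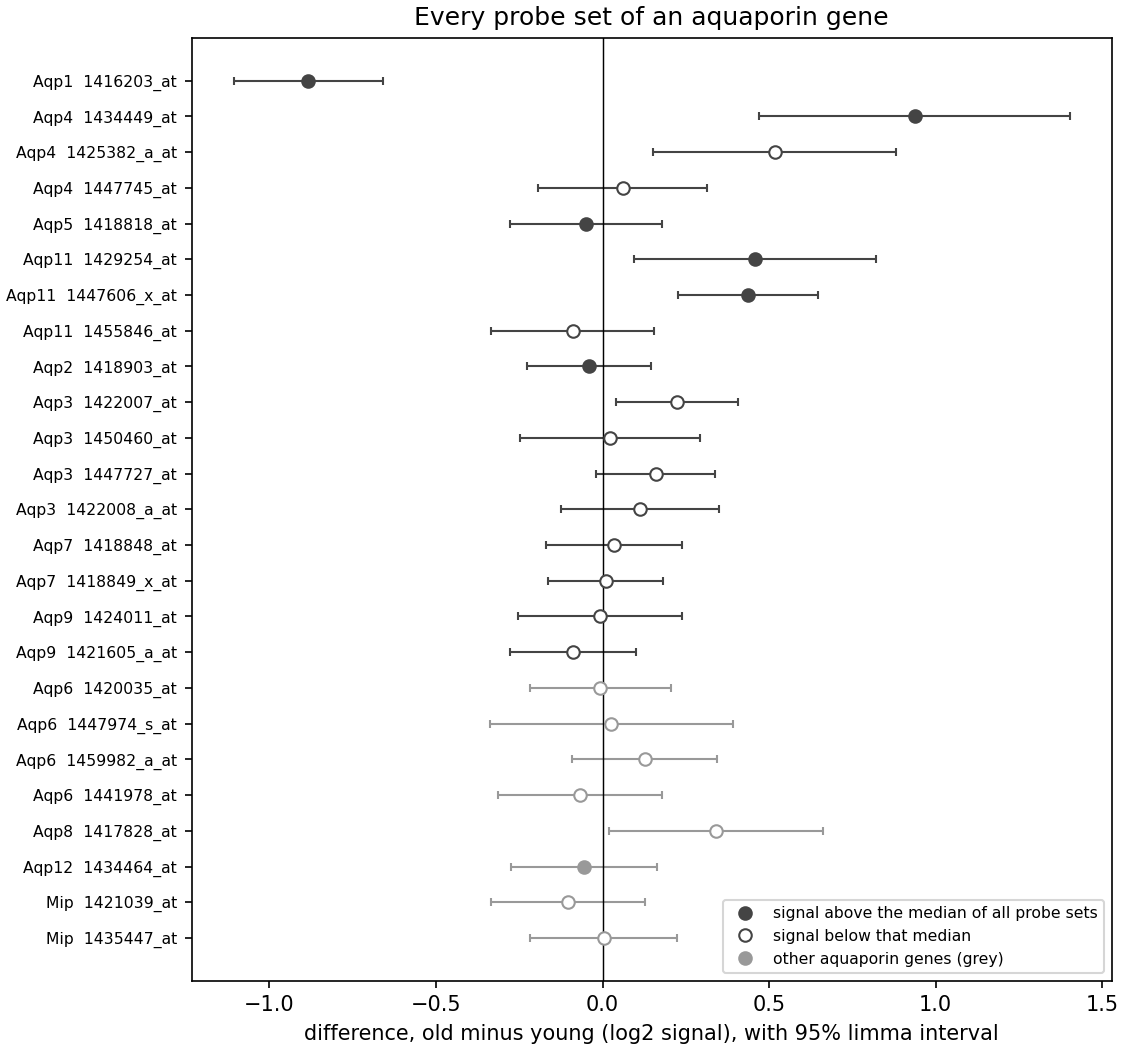
Difference between old and young (log2 signal) for every probe set of the 8 aquaporin genes (dark) and of Aqp6, Aqp8, Aqp12 and Mip (grey), with 95% limma intervals; filled points have a mean signal above 6.28. Aqp1 stands at -0.88, 2 of the 3 probe sets of Aqp4 at 0.94 and 0.52, and 2 of the 3 of Aqp11 at 0.46 and 0.44.

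Aqp11, the endoplasmic reticulum member whose loss causes cystic kidneys in mice, was measured by 3 probe sets that did not all move alike. The brightest, 1429254_at, had 7.73, 8.45 and 8.12 on old and 7.61, 7.65 and 7.67 on young arrays. Young arrays lay within a narrow range below every old array, and the old arrays were spread out (SD 0.36 in old and 0.03 in young tissue, n = 3 each). Its difference was 0.46 ± 0.16. Without old replicate 1 it was 0.64, without old replicate 2 it was 0.28, and without young replicate 2 it was 0.46. Probe set 1447606_x_at had 7.41, 7.48 and 7.26 on old and 6.91, 6.87 and 7.06 on young arrays, a difference of 0.44 ± 0.09 with no overlap. The x in its suffix marks, by Affymetrix naming, probes that may also match other transcripts. Probe set 1455846_at had 5.67, 5.45 and 5.45 on old and 5.53, 5.51 and 5.80 on young arrays, with overlap and a difference of -0.09 ± 0.11. Over the mean of the 3 probe sets the difference was 0.27. Among the 3 old arrays, old replicate 2 was highest at the brightest probe sets of both Aqp4 and Aqp11 and lowest at that of Aqp5.

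The glycerol-passing members were all below 6.28. Aqp3, found in skin and the collecting duct, had 5.48, 5.43 and 5.48 on old and 5.27, 5.14 and 5.31 on young arrays at its brightest probe set. The groups did not overlap there, with a gap of 0.12 and a difference of 0.22 ± 0.08. The other 3 probe sets of Aqp3 had differences of 0.02, 0.11 and 0.16, and the mean over all of them was 0.13. Aqp7, the glycerol channel of adipocytes, had 4.49, 4.59 and 4.34 on old and 4.49, 4.38 and 4.45 on young arrays, and a difference of 0.03 ± 0.09. Its second probe set lay between 3.12 and 3.24 on all arrays, near the lowest value of the table, 2.66. Aqp9, the glycerol channel of hepatocytes and also of leukocytes, had 5.29, 5.27 and 5.21 on old and 5.49, 5.10 and 5.20 on young arrays, and a difference of -0.01 ± 0.11. Its other probe set had a difference of -0.09 ± 0.08. Groups overlapped on every probe set of Aqp7 and Aqp9.

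Markers of adipocytes and marrow cells, known carriers of Aqp7 and Aqp9, are given beside them. Of 8 adipocyte markers, 6 lay below 6.28, and Adipoq, the gene of the fat cell hormone adiponectin, fell at -0.86 ± 0.18 (limma adjusted p = 0.0337, and 0.0793 to 0.129 without any old replicate or young replicate 3). The adipocyte sums overlapped, at 18113 to 18929 in old and 18482 to 18979 in young tissue. Car3, which the fibrocyte list also holds, makes up most of these sums. Of 14 neutrophil and marrow myeloid markers 9 fell, Mpo (-1.27) and Ngp (-1.62) among them, and the sum was 1002 to 1798 in old against 2558 to 3917 in young tissue. Ngp no longer passed without young replicate 3 (limma adjusted p = 0.0544). Neither the Aqp7 nor the Aqp9 signals separated the ages. Of the 11 measured glycerol-handling genes 1 rose, 2 fell and 8 did not pass, with a median difference of 0.01. Mgll, which releases glycerol from monoacylglycerol, had 11.80, 11.76 and 11.64 on old and 10.59, 11.20 and 11.25 on young arrays (0.72 ± 0.16, limma adjusted p = 0.0463). Gpd1, the glycerol 3-phosphate dehydrogenase of the cytosol, had 8.19, 8.13 and 8.44 on old and 8.79, 8.71 and 8.75 on young arrays (-0.50 ± 0.10, limma adjusted p = 0.0284). Ppara, a lipid-sensing nuclear receptor, fell by 0.47 (limma adjusted p = 0.0384). Single arrays decided these 3 calls. Mgll was lost without any old replicate or young replicate 3 (0.0793 to 0.131), Gpd1 without old replicates 1 or 2 or young replicates 1 or 3 (0.0794 to 0.103), and Ppara without any array except old replicate 2 (0.0580 to 0.132). The mean over all of a gene's probe sets did not pass for Gpd1 (-0.24) or Ppara (-0.34).

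**Figure D3:**
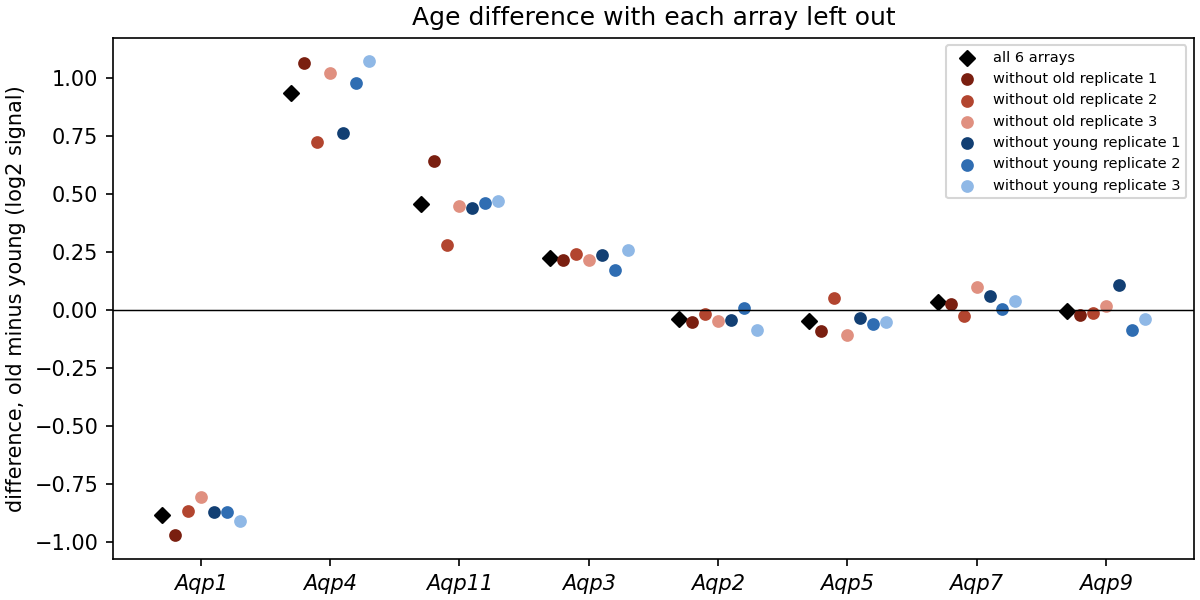
Age difference (log2 signal, old minus young) of the 8 aquaporin genes with all 6 arrays (diamonds) and with each array left out in turn (circles). Aqp1 stays between -0.97 and -0.81, Aqp4 between 0.72 and 1.07 and Aqp11 between 0.28 and 0.64.

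Partners that anchor Aqp4 in the membrane through the dystrophin complex were mostly below the threshold of the test. Of 16 measured genes 0 rose, 2 fell and 14 did not pass, with a median difference of -0.10. Sntb2, a syntrophin, had 8.19, 8.38 and 7.98 on old and 8.75, 8.69 and 8.69 on young arrays (-0.53 ± 0.11, limma adjusted p = 0.0317). Sspn, or sarcospan, averaged 8.85 ± 0.17 on old and 9.37 ± 0.11 on young arrays (SD, n = 3 each), without overlap, a difference of -0.52 ± 0.11 (limma adjusted p = 0.0333). Both were lost without old replicates 1 or 3 or young replicates 1 or 3, with adjusted p of 0.0876 to 0.115 for Sntb2 and 0.0841 to 0.114 for Sspn. Averaged over their probe sets neither passed, at -0.20 and -0.31. Dag1, the dystroglycan that binds matrix laminin, did not pass, at -0.29 ± 0.09 (limma adjusted p = 0.126), nor did Dmd, the dystrophin gene, at -0.06 ± 0.10 (limma adjusted p = 0.809). The 2 anchoring genes that passed were lower in old tissue, while Aqp4 was higher.

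By limma 0 of the 14 measured genes of cell volume regulation passed, 0 of them at an unadjusted p under 0.05, and their median difference was -0.02. The smallest p was that of the potassium-chloride cotransporter gene Slc12a7 (0.13 ± 0.08, limma adjusted p = 0.466). The osmosensitive cation channel gene Trpv4, known to work with aquaporins in several cell types, was at -0.17 ± 0.12 (limma adjusted p = 0.499). Of 12 osmotic and steroid regulators 0 rose, 5 fell and 7 did not pass, with a median difference of -0.16. The genes that fell are known corticosteroid-induced genes, namely Fkbp5, Tsc22d3, Per1, Zbtb16 and Sgk1. Fkbp5 fell by 2.16 (limma adjusted p = 0.000170) at its brightest probe set. Tsc22d3 had 10.08, 10.37 and 10.48 on old and 11.65, 11.96 and 11.66 on young arrays (-1.45 ± 0.13, limma adjusted p = 0.00181). Averaged over all of a gene's probe sets both passed with smaller differences, -0.75 for Fkbp5 and -0.86 for Tsc22d3. Sgk1, a kinase that raises sodium channel activity, had 12.80, 12.92 and 12.90 on old and 13.41, 13.42 and 13.51 on young arrays (-0.57 ± 0.08, limma adjusted p = 0.00751). The receptors themselves did not pass, with Nr3c1 at 0.05 ± 0.08 and Nr3c2 at -0.07 ± 0.08 (limma adjusted p = 0.825 and 0.747). Several of these 5 genes were known to be lower from earlier results of these data, so their count is not independent evidence.

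**Figure D4:**
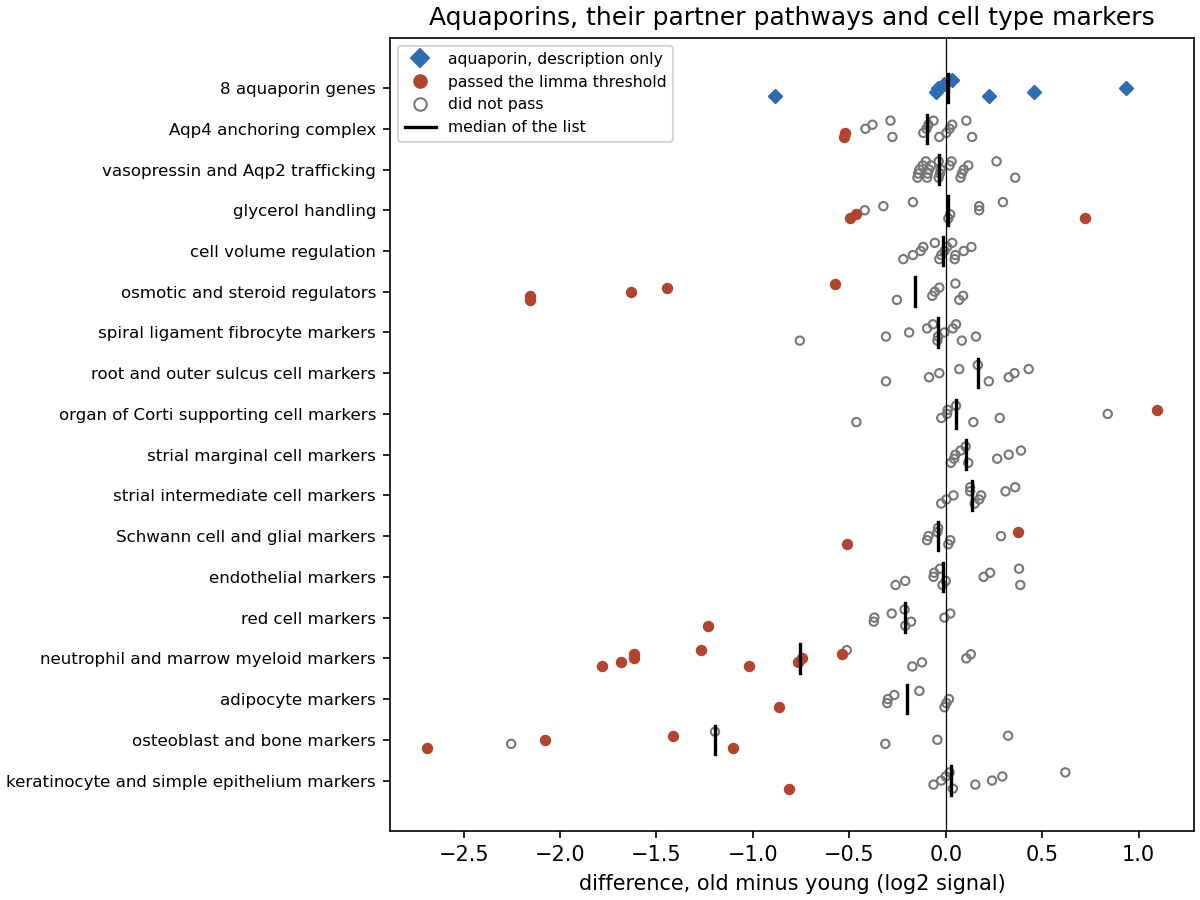
Age difference (log2 signal, old minus young) of the brightest probe set of every gene in the aquaporin group, 5 partner pathways and 12 cell type marker lists; filled red circles passed an adjusted p of 0.05 in limma, open circles did not, blue diamonds are the aquaporins, shown as a description, and black bars are medians. The bone median, -1.20, and the marrow myeloid median, -0.76, lie farthest from 0, and the aquaporin median is 0.01.

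The other aquaporin genes on the array were Aqp6, Aqp8, Aqp12 and Mip, the lens channel, with 8 probe sets. By limma 0 of the 4 genes passed, and 1 of the 8 probe sets had an unadjusted p under 0.05. That was Aqp8, with 5.59, 5.53 and 5.91 on old and 5.07, 5.48 and 5.46 on young arrays (0.34 ± 0.14, limma adjusted p = 0.231). Aqp12, a pancreatic member, had 7.84, 7.70 and 7.67 on old and 7.94, 7.77 and 7.67 on young arrays, above 6.28 (limma adjusted p = 0.832). Aqp6, which lies next to Aqp5 on the chromosome, was at -0.01 ± 0.09 (limma adjusted p = 0.982), and Mip was at -0.10 ± 0.10 (limma adjusted p = 0.676). A signal above 6.28 therefore did not separate the 8 chosen genes from the others.

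The remaining marker lists describe the tissue in which these channels were measured. Of 9 strial marginal cell markers and 10 intermediate cell markers 0 passed by limma, 3 and 2 of them had an unadjusted p under 0.05, all higher in old tissue, with median differences of 0.10 and 0.14. The smallest p were those of Esrrb, a nuclear receptor of marginal cells, and of the potassium channel gene Kcnj13 (0.39 ± 0.12 and 0.36 ± 0.12, limma adjusted p = 0.101 and 0.138, and 0.0477 for Esrrb with an intensity trend). Averaged over its probe sets Esrrb had a difference of 0.16. Of 10 epithelial markers 1 fell, the tight junction gene Cldn4 (-0.81 ± 0.11, limma adjusted p = 0.00659), and 9 did not pass, with a median difference of 0.03. Besides Cldn4, the epithelial markers with an unadjusted p under 0.05 had higher values in old tissue, namely Krt14 at 0.24, the splicing factor gene Esrp1 at 0.29 and Krt19 at 0.62 (limma adjusted p = 0.125, 0.125 and 0.233), named after their values were seen.

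Genes with the most similar pattern were found by Pearson r of age-centred signals, that is each array minus the mean of its age, over the 6 arrays and among 11583 other genes above 6.28. For Aqp1 they were Map11, Pgrmc2 and Tmem45b (r = 0.995, 0.994 and 0.992). For Aqp4 they were Rgs3, Uba7 and Hap1 (r = 0.994, 0.992 and 0.992). Aqp5 was most like Proser1, Snx8 and Lmx1a (r = 0.999, 0.996 and 0.994), Aqp2 like Trim24, Dnajc21 and Slc25a44 (r = 0.998, 0.998 and 0.997) and Aqp11 like Coro2b, Trim16 and Ppara (r = 0.998, 0.997 and 0.995). With so few arrays many genes come close, since 62 genes had r above 0.95 with Aqp1, 53 with Aqp4, 41 with Aqp5, 112 with Aqp2 and 75 with Aqp11. The points share arrays and their scaling, and these values are a description.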

How the data were processed

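Per the labels' protocols, total RNA of microdissected lateral wall was made into biotin cRNA with a kit that primes at the 3′ end, so signals come mainly from 3′ ends. The deposited table holds log2 signals of 45101 probe sets on 6 arrays, from 2.66 to 14.76 with 2 decimals. RMA, MAS5 and Affymetrix Expression Console are named in the submitters' processing notes; roles and versions are not given in the sources used here. Neither background nor scan batches could be examined, as scanner files were not used here. Precision is limited by the number of arrays.

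After 64 control probe sets were removed, 45037 were fitted with limma 3.58.1 (R 4.3.3), with a single age term, and Benjamini-Hochberg adjustment ran over all of them at 0.05. GEO's platform annotation gave 34945 probe sets 1 symbol, 932 several and 9160 none, and genes were named only from single symbols. The brightest probe set represented a gene. Of 219 genes in 18 lists, 194 were measured. No set test was run.

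The aquaporins and the lists were chosen with earlier results of these data known. From each list the text names up to 2 called genes per direction with the smallest p, or, in a list without calls, the gene of smallest p, and defining markers. Any other gene was chosen with its values in view. The fitting script was tested on simulated data. Alternatives are in the closing section.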

Additional observations from a re-analysis of the deposited data

How the results depend on the processing

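An intensity trend with robust variance, cyclic loess, median centring, another quantile normalization, leaving out dim probe sets and the replicate block each left 2 aquaporin genes called, Aqp1 and Aqp4. Aquaporin counts in this section are a description and nothing is read from them. This contrast was in view when the genes were chosen, and the main fit called 4.78% of all genes. The probe sets called with the replicate block numbered 1932 against 2119 without it, and the list genes 28 against 29. The block did end the calls of Mgll, Otog, Sox10 and Sspn (adjusted p of 0.0572, 0.0555, 0.0556 and 0.0618). Whether arrays of equal replicate number share more than the number was not settled. Deviations from the age means correlated at 0.14, 0.08 and 0.01 for equal numbers. Old replicates 1 and 2 each correlated best with the young replicate of equal number, and old replicate 3 with young replicate 2. So few correlations cannot exclude a shared batch. An adjusted p of 0.01 left 436 probe sets, 1 aquaporin gene (Aqp1) and 10 of the list genes. Over averaged probe sets 1 aquaporin gene passed, Aqp1, and the differences of Aqp3 and Aqp4 were 0.13 and 0.50 against 0.22 and 0.94. Leaving out each array in turn gave 515 (without old replicate 3) to 3393 (without young replicate 2) called probe sets, 1 to 2 called aquaporin genes and 10 to 29 called list genes. The second aquaporin gene there was Aqp11, without old replicate 1. Of 101 values of the aquaporin differences under these alternatives, 99 moved by less than 1 replicate SD. Part of these could not move, so that count overstates stability. The intensity trend, the replicate block and leaving out dim probe sets do not change a difference. Averaging cannot change that of Aqp1, Aqp2 or Aqp5, which have 1 probe set each. Of 386 values of 28 named genes outside the group, 66 lost and 9 gained a call and 0 changed direction past the threshold. Signal over background was not examined, so probe sets below 6.28, among them all those of Aqp3, Aqp7 and Aqp9 and some of Aqp4 and Aqp11, were not separated from background.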
